A study of Mus musculus with 2 samples.

Results

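The later proximal tubule barcodes were 387 of the 13563 barcodes called as nuclei in 2 libraries of sorted mouse kidney nuclei, 240 of 5442 in cortex and 147 of 8121 in medulla. They were selected on their measured counts: at least 5 counts of Lrp2 plus Cubn (megalin and cubilin, the endocytic receptors of the proximal tubule), at most 1 count of Slc5a2 plus Slc5a12 (the glucose and lactate cotransporters of its first part), and at least 2 counts of Cyp2e1, Slco1a1, Slc27a2, Slc7a13 and Ugt2b37 together. A barcode is the sequence tag of 1 partition, ideally 1 nucleus. The nuclei came from NKCC2-INTACT mice, in which tamoxifen (5 daily doses of 1 mg, with 10 days to follow) activates a Cre recombinase driven by Slc12a1, the gene of the Na-K-2Cl cotransporter NKCC2 of the thick ascending limb (TAL), so that recombined nuclei carry Sun1-sfGFP at their envelope and can be sorted. Both libraries are labelled as male, strain B6, genotype WT and age 12 with no unit, and both carry the same label of Slc12a1-positive cells. Cortex was a superficial strip and medulla all remaining tissue, so deep cortex lies in the medulla library. The labels do not say how many animals each library holds.

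With 1 library per region there is no replicate, and region and library cannot be told apart. No test across animals was possible, and no p-value is given. Levels are counts summed over a class of barcodes, scaled to a total of 1000000 (CPM). Intervals in parentheses are 95% intervals (Clopper-Pearson for shares, exact Poisson for levels and conditional binomial for their ratios). They cover counting error only.

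The proximal tubule reclaims most of the filtered glucose, amino acids, phosphate and protein, and in its later parts it also secretes organic anions and drugs. It begins in cortex as a convoluted part and ends as a straight part that enters the outer medulla. Sodium-glucose and lactate cotransport belong mainly to the first part, while fatty acid activation by Slc27a2, glutamate and cystine transport by Slc7a13, and oxidation and conjugation by enzymes such as Cyp2e1 and Ugt2b37 belong mainly to later parts. NKCC2 is a TAL transporter and is not known as a proximal tubule gene. In male mice several of the enzymes and transporters of the straight part are set by androgens.

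Slc12a1 divided the selected barcodes into 2 bodies with few between. In cortex 27 barcodes had at most 2 Slc12a1 counts (low members), 7 had 3 to 9 and 206 had at least 10 (high members). In medulla these numbers were 69, 3 and 75. The low members thus made up 11.25% (7.55 to 15.9) of the selected barcodes in cortex and 46.9% (38.7 to 55.3) in medulla. Of all barcodes called as nuclei, they were 0.496% (0.327 to 0.721) in cortex and 0.850% (0.662 to 1.07) in medulla. No Slc12a1 count was seen in 20 of the 27 low members of cortex and 37 of the 69 of medulla. The medullary share is thus lower with a limit of 0. High members may hold a TAL nucleus as well as a proximal tubule nucleus and are described apart. The 10 barcodes with 3 to 9 Slc12a1 counts enter no comparison.

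**Figure D1:**
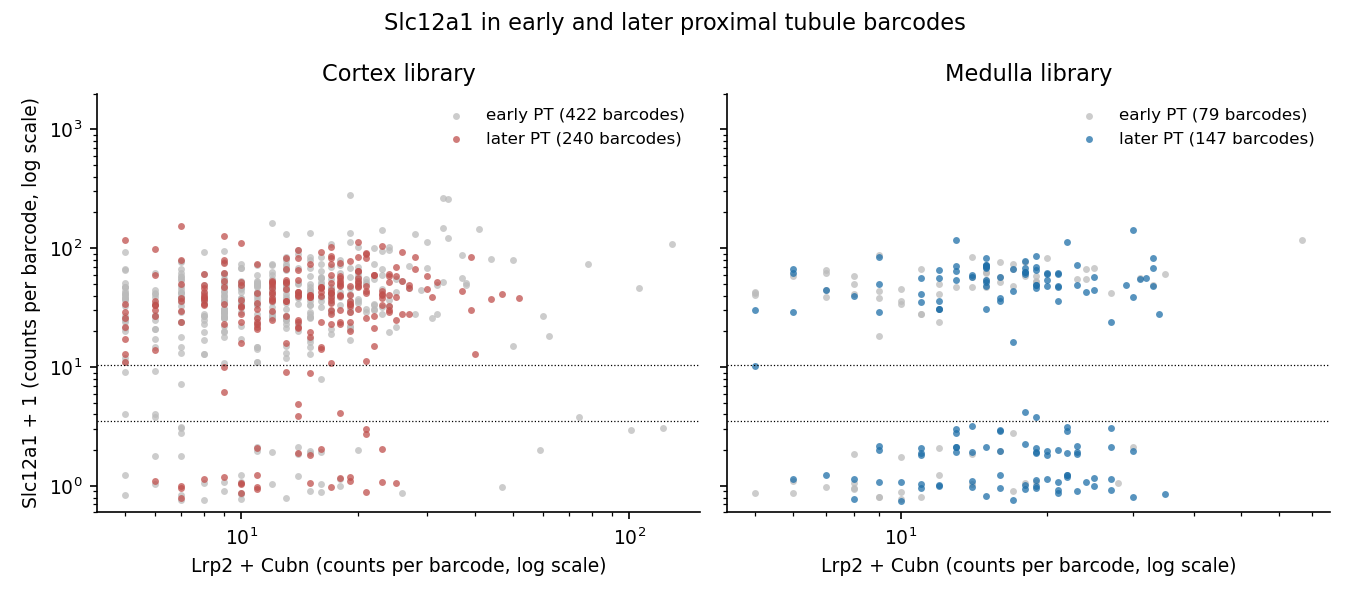
Counts of Slc12a1 plus 1 (vertical, log scale) against Lrp2 plus Cubn (horizontal, log scale) for each early and later proximal tubule barcode, with 1 panel per library and a small random offset on the vertical axis. In both libraries the points form a body at 0 to 2 Slc12a1 counts and a body at 10 or more, with 7 cortical and 3 medullary later barcodes between them.

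Few barcodes lay at the limits of the rule. Exactly 5 counts of Lrp2 plus Cubn were seen in 8 cortical and 2 medullary members, and 10 and 1 further barcodes with 4 counts met every other criterion. One count of Slc5a2 plus Slc5a12 was seen in 24 and 6 members, and 7 and 3 barcodes had 2 counts. No member had exactly 2 counts of the 5 later genes, since the lowest sums were 5 in cortex and 4 in medulla, with medians of 24 and 27. At the Slc12a1 limits, 2 cortical and 8 medullary members had 2 counts and 2 of each library had 3, while 3 cortical and 0 medullary members had 10 and 1 of each library had 9.

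The low members of medulla were somewhat deeper than those of cortex. Low members had a median of 4042 counts and 2064 genes in cortex (2698 to 6943 counts) and of 5002 counts and 2427 genes in medulla (2965 to 8135 counts). Their summed counts were 112344 and 355348, so that 3 counts correspond to 26.7 and 8.44 CPM. High members had medians of 6574 and 7480 counts, and TAL barcodes (at least 10 Slc12a1 counts, at most 1 of Lrp2 plus Cubn) had 2304 and 2413.5. Mitochondrial transcripts made up 0.134% of the counts of low members in cortex and 0.0501% in medulla. No cell barcode was shared between the 2 sets of selected barcodes.

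Of the 6 genes that gave these barcodes their name, the rule itself used 5, so only Adh1, the class I alcohol dehydrogenase, was independent of it. Adh1 was at 623 CPM (486 to 787) in the low members of cortex and at 284 CPM (232 to 345) in those of medulla, against 9.84 and 4.49 CPM in TAL barcodes. At least 1 Adh1 count was seen in 20 of 27 and 41 of 69 low members (74.1% and 59.4%), and in 2.23% and 1.05% of TAL barcodes. After thinning every barcode to 1000 counts these shares were 44.4% and 31.9% against 0.992% and 0.385%. All 12 general proximal tubule markers had counts in both libraries, with sums of 21381 and 11487 CPM. The 6 early markers outside the rule, such as Slc2a2 and Slc7a8, summed to 329 and 172 CPM. Against early proximal tubule barcodes of the same Slc12a1 class, Adh1 was less distinct, at 623 and 352 CPM in cortex (ratio 1.77, 1.27 to 2.46, under 2-fold) and at 284 and 135 CPM in medulla (ratio 2.11, 1.18 to 4.09). Adh1 thus set the low members apart from TAL barcodes, which were themselves chosen for at most 1 count of Lrp2 plus Cubn. Over the early barcodes of cortex Adh1 did not reach 2-fold. The medullary members differed strongly among themselves, as described next.

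Most markers of other cells were scarce in the low members, and the immune marker Csf1r is described below. The 10 TAL markers other than Slc12a1 summed to 899 CPM in cortex (7 of 10 with a count) and 591 CPM in medulla (6 of 10), against 20128 and 15041 CPM in TAL barcodes. The most abundant was Cldn10, with 60 and 152 counts, and Cldn16 and Bsnd were at 0 in both. Umod, the abundant TAL transcript of uromodulin, reached 1.34% (0.541 to 2.77) and 1.01% (0.666 to 1.47) of its level in free RNA, read from uncalled barcodes with at most 50 counts. Cldn10, in contrast, lay above its level in free RNA (152 CPM in cortex and 302 CPM in medulla), and the source of its counts was not tested. Podocyte markers (0 of 4) were at 0 in both libraries. The 6 endothelial markers summed to 8.90 and 8.44 CPM with Pecam1, Emcn and Kdr at 0, the 5 stromal markers to 26.7 and 5.63 CPM, and the 5 intercalated cell markers to 8.90 and 2.81 CPM. The 8 injury markers summed to 17.8 and 14.1 CPM with Lcn2, Krt20, Vcam1 and Sox9 at 0. The 5 markers of the distal convoluted tubule were an exception in cortex, at 890 against 67.5 CPM. There 1 barcode of 6678 counts held 65 of the 66 Slc12a3 counts and 17 of the 18 Trpm6 counts of the class.

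The central feature of the low members was a division by 2 genes that were not part of the rule. Cyp7b1 encodes the oxysterol 7-alpha-hydroxylase, which turns side-chain oxidized cholesterol into bile acid precursors, and Slc34a1 encodes NaPi-IIa, the main phosphate cotransporter of the proximal brush border. Cyp7b1 lies on the minus strand of GRCm39 at chr3:18117411-18297740 and Slc34a1 on the plus strand at chr13:55546000-55563413. In medulla 48 of 69 low members (69.6%, 57.3 to 80.1) had at least 5 Cyp7b1 counts, with a lowest of 5, a median of 38.5 and a highest of 100. The other 21 held 1 Cyp7b1 count in all. In cortex 1 of 27 low members (3.70%, 0.0937 to 19.0) was Cyp7b1-positive, with 56 counts, and the other 26 had none. In TAL barcodes, whose median depth was 2304 and 2413.5 counts, 3 of 4536 in cortex and 1 of 7822 in medulla reached 5 counts. At least 1 Cyp7b1 count was seen in 71.0% of low members of medulla and 3.70% of those of cortex, against 1.93% and 4.98% of TAL barcodes. After thinning to 1000 counts per barcode these shares were 68.1% and 3.70% against 0.936% and 2.56%, so that any count alone did not set the low members of cortex apart from this background.

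Slc34a1 had the opposite distribution. The 48 Cyp7b1-positive low members of medulla had a median of 0 Slc34a1 counts and a highest of 7, and 40 of them had none. The 21 Cyp7b1-negative ones had a lowest of 11, a median of 20 and a highest of 39, so the groups did not overlap. The 26 Cyp7b1-negative low members of cortex had a lowest of 10, a median of 22.5 and a highest of 40, and the positive one had 1. As summed levels, Slc34a1 was at 127 CPM in the positive and 4664 CPM in the negative low members of medulla, and at 5484 CPM in the negative ones of cortex.

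The high members were divided in a similar way, but their groups overlapped in Slc34a1. The lowest Slc34a1 count of the negative ones was 1 in cortex and 0 in medulla, and the highest of the positive ones was 6 and 3. Cyp7b1-positive were 11 of 206 (5.34%, 2.70 to 9.35) in cortex, with a lowest of 13, a median of 32 and a highest of 42 Cyp7b1 counts, and 25 of 75 (33.3%, 22.9 to 45.2) in medulla, with a lowest of 5, a median of 42 and a highest of 87. The highest Cyp7b1 count among the negative ones was 2 in cortex and 3 in medulla. None of the 12 positive members of cortex and none of the 74 of medulla, low, high or between, had 10 or more Slc34a1 counts. Of the negative high members, 180 of 195 and 46 of 50 did. Early proximal tubule barcodes with at most 2 Slc12a1 counts (at least 5 of Lrp2 plus Cubn and at least 2 of Slc5a2 plus Slc5a12) were Cyp7b1-positive in 1 of 41 in cortex, a barcode of 33251 counts, and in 0 of 25 in medulla. Those with at least 10 Slc12a1 counts were positive in 3 of 373 in cortex and 1 of 54 in medulla. Unlike the positive later members, all of these positive early barcodes had 10 or more Slc34a1 counts. Their median depth was 13191 counts in cortex and 29770 in medulla in the high class. The split at 5 Cyp7b1 counts was chosen after the values had been seen.

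**Figure D2:**
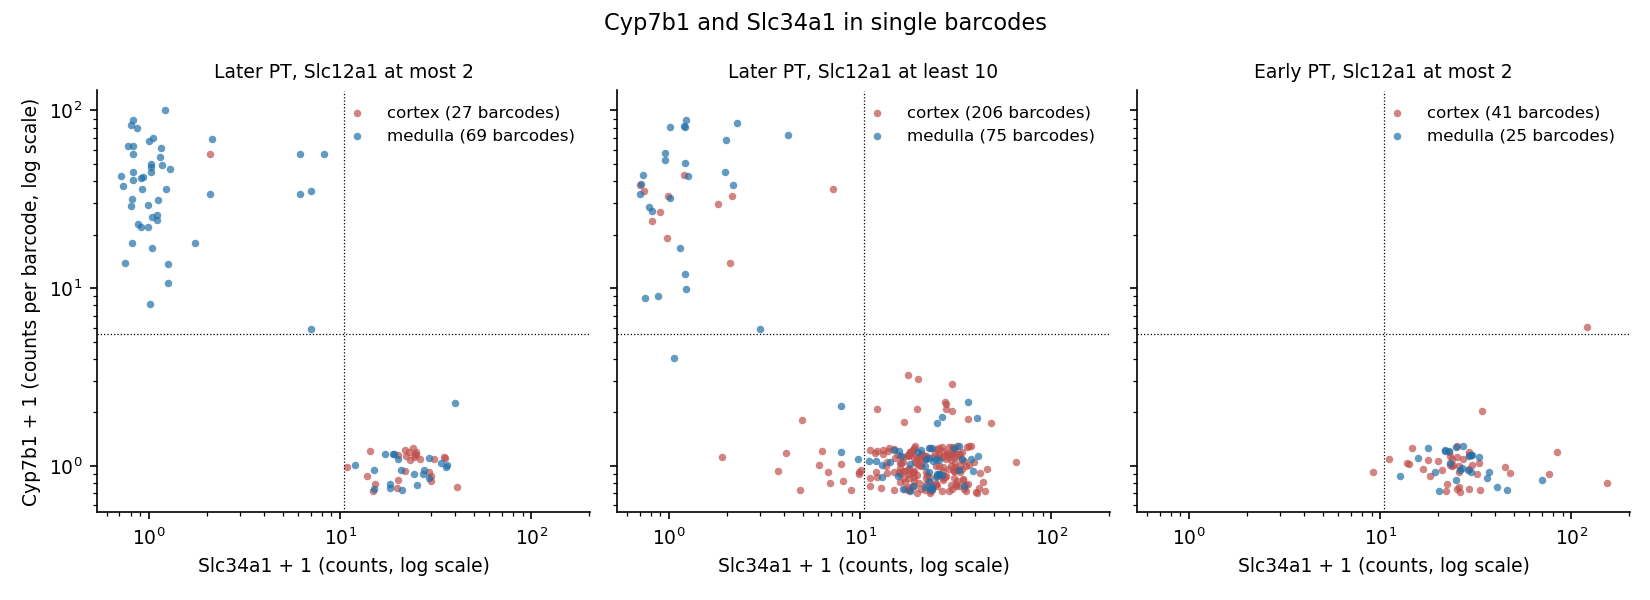
Counts of Cyp7b1 plus 1 against counts of Slc34a1 plus 1 for each barcode (both axes logarithmic, small random offsets), with separate panels for low members, high members and early proximal tubule barcodes and 1 colour per library; the dotted lines separate fewer than 5 from 5 or more Cyp7b1 counts and fewer than 10 from 10 or more Slc34a1 counts. The low members fall into a body with many Cyp7b1 and at most 7 Slc34a1 counts, nearly all medullary, and a body with at most 1 Cyp7b1 count and at least 10 of Slc34a1.

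The genes of the rule chose the members, and their counts are given as a description. At least 1 count of Cyp2e1, Slco1a1 (an organic anion uptake carrier) or Ugt2b37 (a glucuronosyltransferase) was seen in 26 of 26 negative low members of cortex and 19 of 21 of medulla, but in 8 of 48 positive ones. A member without these 3 genes can only have been selected through Slc27a2 or Slc7a13. In such members the rule thus requires at least 2 counts of these together, but no higher number. Slc7a13 had a median of 12 counts in the positive (2 to 33) and of 12 in the negative low members of medulla (2 to 22), and of 7 in the negative ones of cortex (0 to 16). Slc27a2 had medians of 15.5, 12 and 11 counts in the same order. In 40 of the 48 Cyp7b1-positive low members of medulla the rule was met through Slc27a2 and Slc7a13 alone. Over all low members, 42 of 69 in medulla had counts of only 2 of the 5 later genes, against 1 of 27 in cortex, where 13 had all 5.

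Within the low members of medulla, the 48 positive and 21 negative barcodes were compared over the genes with at least 20 counts in both together. Of 3560 such genes, called measured in what follows for each comparison, 366 (10.3%) were at least 2-fold higher in the positive members and 252 (7.08%) at least 2-fold lower, with a median ratio of 1.02. Cyp7b1 itself set the groups and is not counted as a result. The genes named here are those whose interval of the ratio lay farthest from 1, and list members.

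Bcat1, the cytosolic branched-chain aminotransferase, stood among the genes with the most distant intervals on the higher side. It was at 1978 CPM in the positive and 38.8 CPM in the negative members, a ratio of 51.0 (19.8 to 188), and had a count in 46 of 48 against 1 of 21 barcodes. Bckdhb, a subunit of the branched-chain keto acid dehydrogenase, which acts after Bcat1 in the breakdown of these amino acids, was among the lower genes, at 3.96 and 223 CPM (ratio 0.0178, 0.000432 to 0.109). Slc7a12, an amino acid transporter of the same family as Slc7a13, was at 1590 and 126 CPM, a ratio of 12.6 (7.29 to 23.9), and had a count in 32 of 48 positive members. All 13 Slc7a12 counts of the negative members came from 1 barcode. Slc6a15, a neutral amino acid transporter, was at 2458 and 126 CPM, a ratio of 19.5 (11.3 to 36.8). Slc6a18, a glycine and neutral amino acid transporter of the late proximal brush border, was at 1289 and 591 CPM. Uroc1, urocanate hydratase of histidine breakdown, was at 309 CPM with no count in the negative members, at least 10.6-fold higher (such bounds set a count of 0 to 3 counts and are not 95% limits). Of the 12 amino acid transport genes measured outside the rule, 4 were at least 2-fold higher (Slc6a18, Slc7a12, Slc38a3 and Slc6a20a) and 1 lower (Slc36a1), with a median ratio of 1.45.

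The higher genes also included a sterol enzyme and a hormone receptor. Cyp51, lanosterol demethylase, was 1 of 2 P450 genes at least 2-fold higher. Prlr, the prolactin receptor, was at 305 CPM, from 16 of 48 barcodes, with no count in the negative members, at least 10.5-fold higher. Snhg11, a long noncoding RNA, was at 1166 and 38.8 CPM (ratio 30.1, 11.6 to 111). Csf1r, the only gene of the immune list measured, was at 95.2 and 29.1 CPM, a ratio of 3.27. It had a count in 22 of 48 positive and 2 of 21 negative barcodes.

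Organic anion transporters went both ways. The basolateral uptake carrier Slc22a6 (OAT1) had 1 count in the positive members and 19 in the negative, 3.96 against 184 CPM. Slc22a8 (OAT3), also basolateral, had 0 and 17 counts (0 and 165 CPM), under the minimum of 20, and is not counted as measured. Slc13a3, the dicarboxylate carrier that works beside them, was at 79.3 and 514 CPM, a ratio of 0.154 (0.0874 to 0.262). Slc22a7 (OAT2) at 301 and 126 CPM, Slc22a19 (OAT5, an apical carrier) at 1372 and 407 CPM, and Slco4c1, with 52 counts against 0, were higher in the positive members. In the list of organic anion and cation transport 4 of 20 genes measured outside the rule were at least 2-fold higher and 2 lower (Slc22a5 and Slc22a6), with a median ratio of 0.849.

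The lower genes included enzymes of xenobiotic metabolism and apical transporters. Cyp4b1 was at 11.9 and 1018 CPM, Cyp2j13 at 63.4 and 1076 CPM and Ugt2b38 at 7.93 and 378 CPM. Ugt2b37 and Cyp2e1 are genes of the rule and are given as a description, at 11.9 and 1057 and at 3.96 and 194 CPM. Reads of the near-identical Ugt2b37 and Ugt2b38 could be assigned to one another. Slc9a3, the apical sodium-proton exchanger NHE3, and Bnc2, a zinc finger protein, had no count in the positive members against 21 and 106 in the negative. Slc34a1 had a ratio of 0.0272 (0.0184 to 0.0389). Outside the rule, 2 of 6 P450 genes measured were at least 2-fold lower and 2 higher (median ratio 1.18), and 2 of 7 conjugation genes were lower and 1 higher (median 0.832).

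The general proximal tubule genes were lower or level, and none was at least 2-fold higher. Of 12 measured, 6 were at least 2-fold lower (Slc34a1, Dab2, Miox, Slc13a3, Slc4a4 and Acsm2), with a median ratio of 0.535. Dab2, the adaptor of megalin endocytosis, was at 1499 and 4460 CPM, while megalin itself (Lrp2) was at 1963 and 3171 CPM and Cubn at 1178 and 941 CPM. Hnf4a, a master regulator of proximal tubule differentiation, was at 333 and 281 CPM. Of 8 transcription factor genes measured 2, Ppargc1a and Maf, were at least 2-fold lower. Among later proximal tubule markers outside the rule, 7 of 16 measured were at least 2-fold higher (Slc5a10, Slc6a18, Slc22a7, Bcat1, Napsa, Aadat and Slc22a13) and 4 lower (Slc22a6, Adh1, Cyp4b1 and Slc13a1), with a median ratio of 1.32. Napsa, an aspartic protease, was at 1011 and 301 CPM. Of 16 fatty acid oxidation genes measured outside the rule 4 were at least 2-fold lower and 1 higher, and no gene of gluconeogenesis (8 measured) or of the brush border peptidases (6 measured) passed 2-fold in either direction.

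Genes with a known sex difference in mouse proximal tubule formed 2 further lists. Of 7 male-biased genes measured outside the rule, 2 were at least 2-fold lower in the positive members (Cyp2j13 and Cyp4b1) and 1 higher (Cyp4a12a), while Kap, the kidney androgen-regulated protein, was at 2514 and 2657 CPM. The 2 female-biased genes with enough counts, Prlr and Slc7a12, were both higher. The transcripts of the sex chromosomes were those of males. Xist, the transcript of the inactive X chromosome, had no count in any low member, and at least 1 count of 4 Y-linked genes was seen in 25 of 27 low members of cortex and 66 of 69 of medulla.

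**Figure D3:**
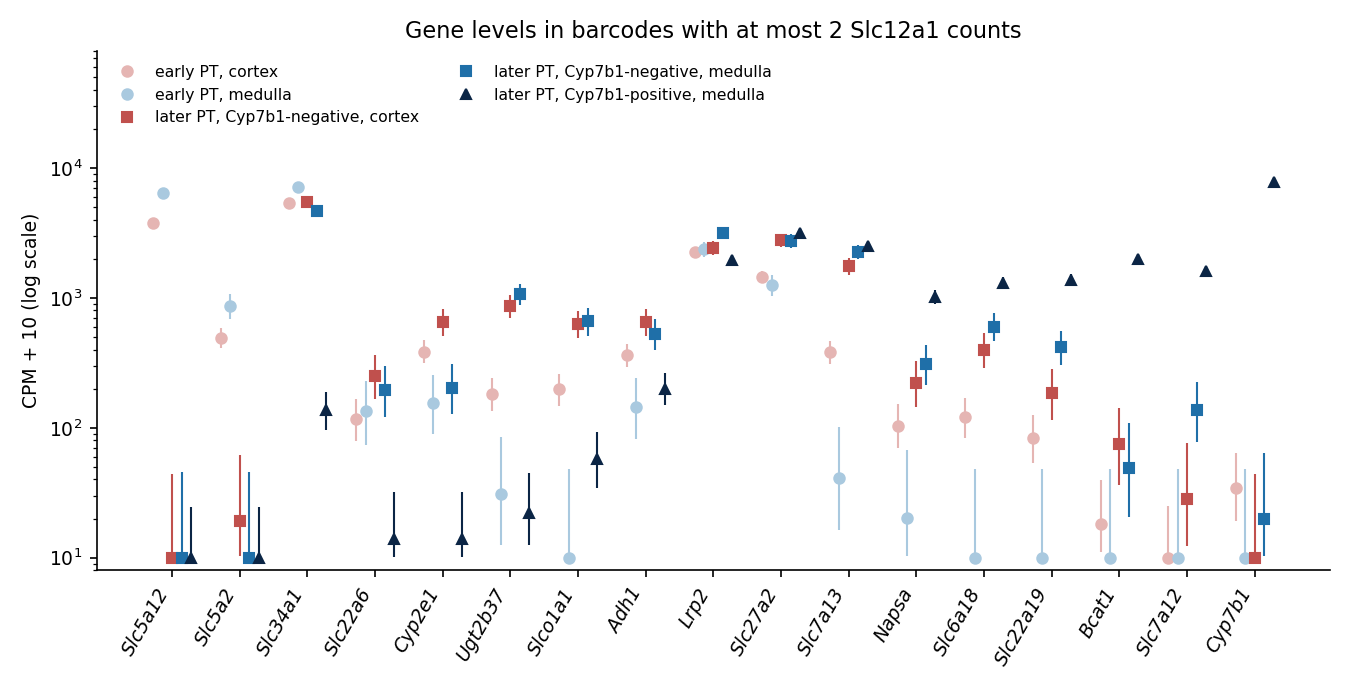
Levels of 17 genes as CPM plus 10 (log scale) with 95% Poisson intervals, for barcodes with at most 2 Slc12a1 counts: early proximal tubule (circles), Cyp7b1-negative later members (squares) and Cyp7b1-positive later members of medulla (triangles). Slc34a1 is at 5484 and 4664 CPM in the negative members of cortex and medulla and at 127 CPM in the positive ones, and Bcat1 is at 38.8 CPM in the negative and 1978 CPM in the positive members of medulla.

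The genes with the largest differences in the low members were then read in the high members, which had no part in ranking them. Bcat1 had positive-to-negative ratios of 61.7 (30.8 to 144) in the high members of medulla and 439 (145 to 2169) in those of cortex, where the negative barcodes held 3 counts. Slc7a12 had 19.3 (11.1 to 36.2) and 16.2 (10.0 to 26.2) and Prlr 44.1 (11.5 to 375) and 47.9 (23.0 to 109). On the lower side, Slc34a1 had 0.0162 (0.00739 to 0.0309) and 0.0309 (0.0141 to 0.0588), and Cyp2j13 0.117 (0.0671 to 0.190) and 0.0724 (0.0235 to 0.170). The cortical values rest on 11 positive barcodes, and those of Prlr and Slc7a12 on few of them. Prlr had 32 counts in 3 of the 11, with 19 in 1 barcode, and Slc7a12 had 39 counts in 5 of the 11, with 20 in 1 barcode, while 17 of its 36 counts in the negative members also lay in 1 barcode. The intervals do not cover this spread between barcodes. Bckdhb had ratios of 0.720 (0.561 to 0.916) and 0.544 (0.330 to 0.849), and Slc9a3 of 0.513 (0.351 to 0.733) and 0.686 (0.415 to 1.07), against 0.0178 and at most 0.0584 in the low members.

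**Figure D4:**
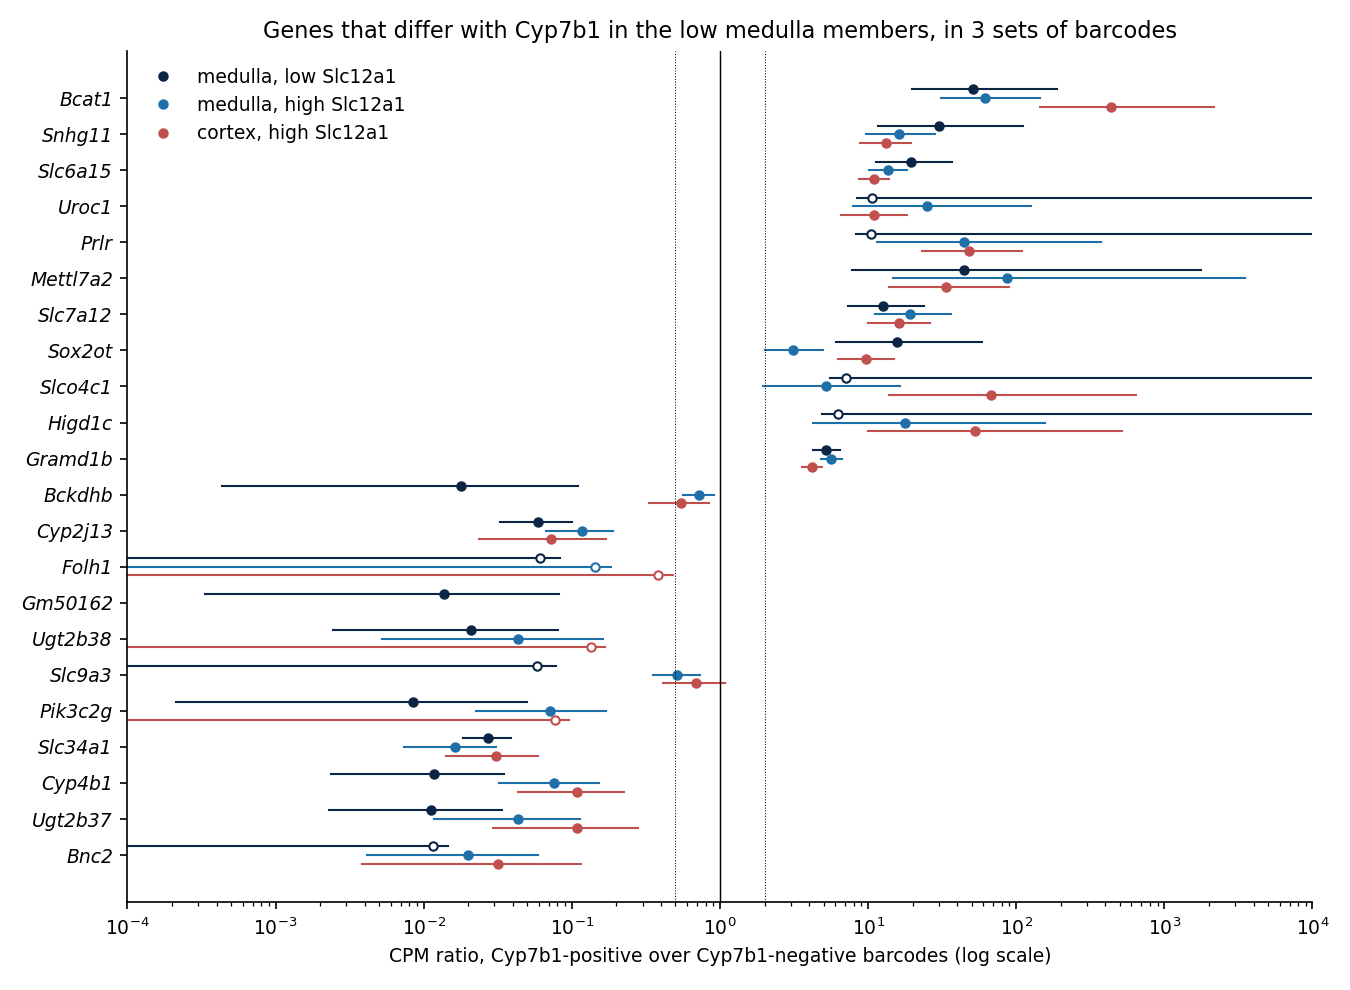
Ratio of CPM in Cyp7b1-positive over Cyp7b1-negative barcodes (log scale, 95% intervals) for 11 of the 12 genes on each side that stood farthest from 1 in the low members of medulla, with the same genes in the high members of medulla and of cortex. Open points are bounds with a count of 0 set to 3 counts, dotted lines mark 2-fold, and a point is left out where both classes had at most 3 counts. Apart from Bckdhb and Slc9a3, which lie between 0.513 and 0.720 in the high members, and Gm50162, which is not shown there, the high members of both libraries lie beyond the same 2-fold line as the low ones.

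The promoters of these genes were searched for 2 short motifs of factors that act throughout the proximal tubule, HNF1 (letters GTTAATNAT, where N is any base) and HNF4 (letters CAAAGTCCA), on both strands from 250 bases before to 50 bases after the canonical start in GENCODE M39 on GRCm39. Of 21770 protein-coding genes 178 (0.818%) held the HNF1 letters and 98 (0.450%) the HNF4 letters. Of 13 genes higher in the positive members 1 held the HNF1 letters (Slc7a12, in 2 places), of 13 lower genes none did, and of 6 further genes with counts in both groups 1 did (Slc7a13). The higher genes include Cyp7b1, which set the groups. Genes of the rule are among the lower ones (Cyp2e1, Ugt2b37 and Slco1a1) and the further ones (Lrp2, Cubn, Slc27a2 and Slc7a13). The HNF4 letters were in none of these windows, so the 2 motifs could not overlap there. The sites are shown because they belong to the 2 amino acid transporters of the same family, of which Slc7a12 was higher in the positive members and Slc7a13 is a gene of the rule. The gene Slc7a12 lies at chr3:14545757-14570890 and Slc7a13 at chr4:19818725-19842218, both on the plus strand. The runs lie at chr3:14545685-14545713, chr3:14545617-14545645 and chr4:19818664-19818692 on GRCm39 and are written on the plus strand, with the motif in capitals. The first motif base is at position -62, -130 and -51 from the start, and the middle run holds the letters on the minus strand. A match is a description of the letters only.
Slc7a12 first: taattcagaaGTTAATTATtatcaaaccc
Slc7a12 second: taataaaaaaATTATTAACaagaaatctg
Slc7a13: cacctactttGTTAATTATtgaacataga

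The question of region was addressed by comparing the 69 low members of medulla with the 27 of cortex. Of 4373 genes with at least 20 counts, 472 (10.8%) were at least 2-fold higher in medulla and 299 (6.84%) at least 2-fold lower, with a median ratio of 1.02. The genes with the most distant intervals included several that divided the medullary members above. Cyp7b1 was at 5513 CPM (medulla) and 498 CPM (cortex), a ratio of 11.1 (8.48 to 14.7), with all 56 cortical counts in 1 barcode. Slc7a12 was at 1165 and 17.8 CPM, a ratio of 65.4 (18.0 to 542), and Bcat1 at 1416 and 116 CPM, a ratio of 12.2 (7.09 to 23.1). On the lower side, Slc34a1 was at 1444 and 5305 CPM, a ratio of 0.272 (0.241 to 0.307). Cyp2e1, a gene of the rule given as a description, was at 59.1 and 623 CPM. Slc12a3 was also lower (25.3 against 587 CPM), but without the cortical barcode that held nearly all of its counts 9 medullary counts stood against 1, too few to give a direction (ratio 2.68, 0.371 to 117).

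By list, 8 of 18 later markers measured were at least 2-fold higher in medulla and 4 lower, and 0 of 12 general proximal tubule genes were higher and 3 lower. Outside the rule, organic ion transport had 4 higher and 3 lower of 21, amino acid transport 5 higher and 1 lower of 13, and conjugation 1 higher and 3 lower of 9. Among the brush border peptidases, Mep1b and Mme were at least 2-fold higher and Enpep at least 2-fold lower. The immune list was represented by Csf1r alone among genes measured, with 27 counts in medulla (76.0 CPM) and 0 in cortex, while Ptprc and C1qa were at 0 in both. Of these 27 counts 24 lay in Cyp7b1-positive members. Their part in the other differences was not tested.

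Among Cyp7b1-negative low members alone, 21 in medulla and 26 in cortex, fewer genes passed 2-fold. Of 2338 genes measured 86 (3.68%) were at least 2-fold higher in medulla and 103 (4.41%) at least 2-fold lower, with a median ratio of 0.990. None of the 11 general proximal tubule genes (median 1.01) and none of the 14 later markers (median 1.06) passed 2-fold. Slc34a1 was at 4664 and 5484 CPM, a ratio of 0.850 (0.753 to 0.961). Of the genes of the rule, given as a description, Ugt2b37 was at 1057 and 857 CPM, Slco1a1 at 650 and 618 CPM and Cyp2e1 at 194 and 645 CPM. Slc22a19 was at 407 and 175 CPM, a ratio of 2.33 (1.32 to 4.24), and was the sole organic ion transporter at least 2-fold higher of 18 measured outside the rule, while Abcc4, an apical efflux pump, was lower (ratio 0.421, 0.229 to 0.742). Gpm6a, a neuronal membrane glycoprotein, had a ratio of 3.05 (1.78 to 5.43) and Nt5e, the ecto-5-prime-nucleotidase CD73, of 3.58 (1.73 to 8.12). The smaller number of measured genes follows from the fewer counts of the smaller groups.

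The share of later among early and later proximal tubule barcodes differed with the library. Among barcodes with at most 2 Slc12a1 counts it was 39.7% (28.0 to 52.3) in cortex, 27 of 68, and 73.4% (63.3 to 82.0) in medulla, 69 of 94. Among those with at least 10 Slc12a1 counts it was 35.6% (31.7 to 39.6) and 58.1% (49.1 to 66.8). These shares concern nuclei that passed a sort for GFP and do not measure the makeup of the tissue.

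**Figure D5:**
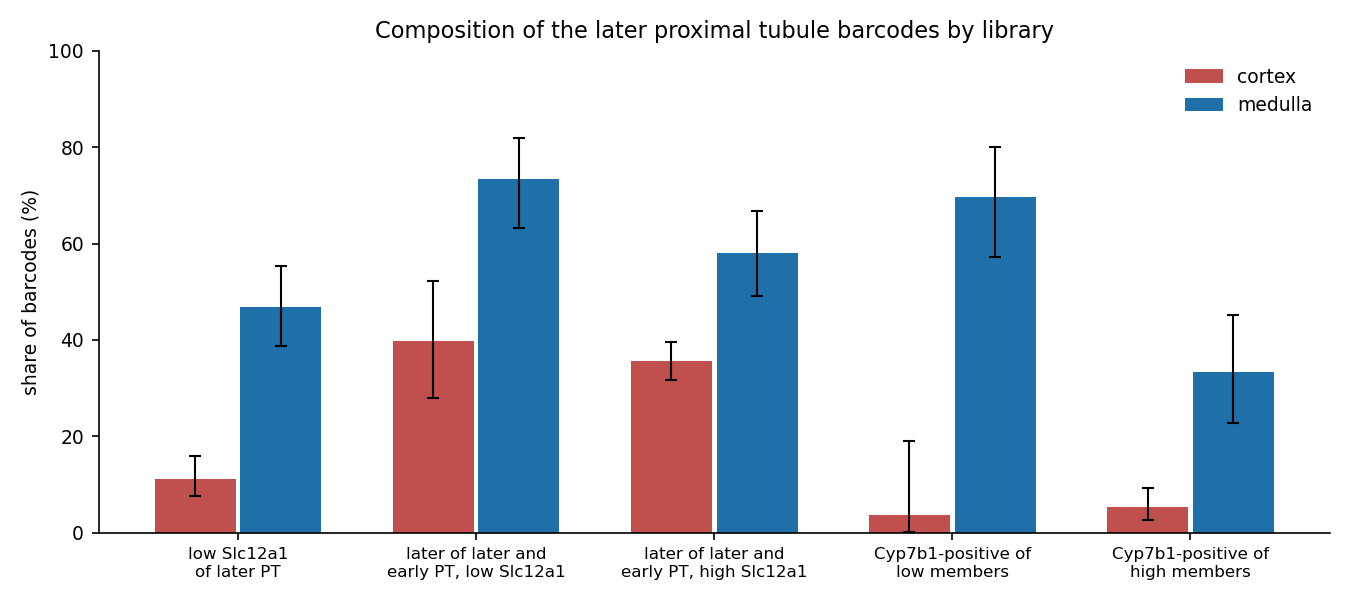
Shares of barcodes (%) with 95% Clopper-Pearson intervals for cortex and medulla: low members among all members, later among early and later barcodes in the low and high Slc12a1 classes, and Cyp7b1-positive barcodes among low and high members. The share of low members is 11.25% in cortex and 46.9% in medulla, and the share of Cyp7b1-positive low members is 3.70% and 69.6%.

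Later members were compared with early proximal tubule barcodes, the class most like them, within each library and with at most 2 Slc12a1 counts in both. The genes of the rule chose the classes and were left out of the counts. In cortex (27 against 41 barcodes) 215 of 3791 genes measured (5.67%) were at least 2-fold higher in the later members and 421 (11.1%) at least 2-fold lower. In medulla (69 against 25) 743 of 4274 (17.4%) were higher and 456 (10.7%) lower. The early markers outside the rule went together, with 6 of 6 measured at least 2-fold lower in cortex (median ratio 0.123) and 5 of 5 in medulla (median 0.0256). Gatm, the first enzyme of creatine synthesis, had 3 counts in the later and 74 in the early barcodes of medulla, a ratio of 0.0110 (0.00222 to 0.0334), and Slc7a8, a basolateral amino acid exchanger, a ratio of 0.0115 (0.00231 to 0.0349).

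Of the later markers outside the rule, 6 of 15 measured were at least 2-fold higher in cortex and 0 lower (median 1.87), and 12 of 18 higher and 2 lower in medulla (median 3.24). In medulla Bcat1, Slc7a12, Slc22a19 and Slc6a18 had no count in the early barcodes, which with 0 set to 3 counts puts them at least 45.5, 37.4, 35.1 and 34.9-fold higher in the later members (95% lower limits 36.8, 30.3, 28.4 and 28.2), and Napsa had a ratio of 77.6 (13.8 to 3074). In cortex Cyp7b1 had a ratio of 20.3 (8.77 to 57.7), from 1 later barcode. Kap was at 3071 and 1055 CPM in cortex, a ratio of 2.91 (2.47 to 3.43). Cd36, a fatty acid uptake receptor, had ratios of 3.67 (2.51 to 5.44) in cortex and 72.1 (12.8 to 2860) in medulla, and Rnf24, a RING finger protein, of 3.84 (2.66 to 5.62) and 32.1 (16.8 to 70.3). Of the amino acid transport genes measured, 1 of 13 was at least 2-fold higher in cortex (Slc6a18) and 4 lower (Slc6a19, Slc7a7, Slc7a8 and Slc7a9). In medulla 6 of 15 were higher, Slc6a18 and Slc3a1 among them, and 6 lower, the 4 lower in cortex among them. Slc34a1 was at 1444 CPM in the later and 7181 CPM in the early barcodes of medulla, and at 5305 and 5371 CPM in cortex. Among the 21 Cyp7b1-negative later members of medulla alone, 476 of 2239 genes measured passed 2-fold against the early barcodes, 241 higher and 235 lower. Slc6a18 and Slc22a19 were at least 19.0 and 13.1-fold higher, and Cd36 had a ratio of 75.7 and Gatm of 0.0253 (0.00300 to 0.0945). The early class of cortex held 2 barcodes of 40086 and 33251 counts, 16.4% and 13.6% of its counts, with counts of the endothelial genes Flt1 (20 and 8) and Emcn (12 and 9).

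High members carried TAL transcripts at a reduced level and proximal tubule transcripts beside them. The 10 TAL markers summed to 9435 CPM in cortex and 6289 CPM in medulla, 46.9% (46.1 to 47.7) and 41.8% (40.4 to 43.2) of the level in TAL barcodes. Slc12a1, which chose the class, was at 41.8% and 36.8% of it. The general proximal tubule markers were at 62.9% (60.3 to 65.7) and 92.8% (89.1 to 96.6) of their level in low members. The medullary value pools Cyp7b1-positive barcodes, whose general marker level was lower, at unequal shares. Within the positive and the negative barcodes of medulla it was 67.9% (62.9 to 73.4) and 65.3% (62.0 to 68.7), and within the negative ones of cortex 63.9% (61.2 to 66.8). The median depth of the high members was 6574 and 7480 counts, and the medians of low members and TAL barcodes add to 6346 and 7415.5. Scrublet, a doublet caller, placed 24 of 206 and 8 of 75 high members, and none of the 27 and 69 low members, among the 5% of highest scores of their library. Whether single high barcodes hold 2 nuclei was not tested.

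Against low members, 1229 of 8571 genes measured (14.3%) were at least 2-fold higher in the high members of cortex and 532 (6.21%) at least 2-fold lower. In medulla 763 of 6748 (11.3%) were higher and 323 (4.79%) lower. In cortex 7 of 10 and in medulla 7 of 8 TAL markers measured were at least 2-fold higher and none lower. Egf, the TAL growth factor precursor, had a ratio of 24.3 (16.7 to 36.9) in cortex and 53.0 (34.9 to 84.8) in medulla, Umod of 26.7 (12.9 to 66.5) in cortex, and Erbb4, a receptor tyrosine kinase, of 61.8 (31.4 to 143) and 53.7 (37.3 to 80.4). In medulla 9 of 19 later markers measured were at least 2-fold lower in the high members and 1, Slc5a1, was higher. Among the lower ones, Cyp7b1 had a ratio of 0.357 (0.332 to 0.385), Bcat1 of 0.331 (0.284 to 0.385) and Aadat of 0.291 (0.229 to 0.368). Cyp7b1-positive shares were 33.3% in high and 69.6% in low members.

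As a description, counts of single genes were also set against Lrp2 plus Cubn, which the rule used. Per 100 counts of these receptors, Slc34a1 had 155 (136 to 176) counts in the low and 130 (124 to 136) in the high members of cortex, Adh1 had 18.2 (13.9 to 23.5) and 15.5 (14.1 to 17.0), and Slc7a12 had 0.519 (0.0627 to 1.89) and 2.23 (1.75 to 2.80), from 2 and 75 counts. In medulla Slc34a1 had 42.2 (38.0 to 46.8) and 82.4 (76.0 to 89.3) per 100 in low and high members, and Cyp7b1 had 161 (150 to 173) and 82.3 (75.9 to 89.2). The values of Cyp7b1 restate the shares of Cyp7b1-positive barcodes in the 2 classes.

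The clusters deposited by the authors, 13 per library, placed 26 of the 27 low members of cortex in a single cluster of 70 barcodes. All 69 low members of medulla lay in a single cluster of 102 barcodes, so that Cyp7b1-positive and Cyp7b1-negative low members of medulla shared a deposited cluster.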

How the data were processed

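Nuclei of dissected mouse kidney cortex and medulla were sorted for GFP and profiled with the PIPseq T10 kit, chemistry 5.0, with 1 library per region. The authors aligned reads to GRCm39 and counted transcripts per gene and barcode with PIPseeker 3.3.0. The deposited values are raw counts of 32227 genes, given for all barcodes and for those called as nuclei, before the authors' doublet removal, ambient correction and normalization. The submitters' processing notes also name bcl2fastq and Seurat 4.4.0. The deposited PIPseeker clusters were read as labels only, and UMAP coordinates were not used here.

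All barcodes called as nuclei were used, with no filter and no doublet removal. Counts were summed per class and library and scaled to CPM in Python 3.11.15 (numpy 2.4.6, scipy 1.17.1, pandas 2.3.3). Poisson, conditional binomial and Clopper-Pearson intervals at 95% treat counts as independent. A gene was measured in a comparison, and its ratio set against 2-fold, where both classes together held at least 20 counts, with a count of 0 set to 3 counts. This count limit lets genes near it pass 2-fold on counting error. Ambient levels came from uncalled barcodes with at most 50 counts. Detection was repeated after thinning barcodes to 1000 counts, which left out 23 TAL barcodes of medulla and no other of the compared barcodes. Scrublet (scanpy 1.11.5) scores were used as an alternative. Its automatic threshold called 338 of 5442 barcodes in cortex but 2 of 8121 in medulla and was set aside for the 5% highest scores of each library. The interval and ratio code was tested on simulated counts.

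The genes named are those of the rule, the 25 lists of markers and pathways (counts past 2-fold with examples), and for each comparison the 12 genes per direction whose ratio interval lay farthest from 1. Some items are not reported here. List counts leave out genes of the rule, a choice made after the values had been seen. The members and lists were chosen with earlier results of these data known. The split by Cyp7b1 with its comparisons, the genes with promoters searched and 3 further alternatives were chosen after the values had been seen. Promoters were read from the GRCm39 genome with GENCODE M39 starts. Antisense, overlapping and near-identical genes (the Ugt2b, Ugt1a, Cyp4a and Slc22a families) are uncertain, since reads may be split among them.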

Additional observations from a re-analysis of the deposited data

Results flagged for a closer look

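In later against early comparisons 7 genes were at least 2-fold apart in opposite directions in the 2 libraries, with intervals that exclude 1 in both, out of 3446 genes with enough counts in both. Chrm3, a muscarinic acetylcholine receptor, had 0 counts in the later and 21 in the early barcodes of cortex and 101 and 0 in those of medulla. Maml2 had ratios of later to early of 0.427 (0.193 to 0.850) in cortex and 29.3 (5.15 to 1167) in medulla, and Ptprm of 0.247 (0.0765 to 0.622) and 16.3 (2.81 to 653). Daam1, Ncoa6 and Umad1 were lower in the later members of cortex (0.396, 0.408 and 0.408) and higher in those of medulla (2.55, 2.71 and 3.80), and Fhip1b was higher in cortex (3.14) and lower in medulla (0.419). The number flagged is 7, and the difference between libraries was not tested.

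In the raw cortex matrix 3 barcodes outside those called as nuclei met the rule, 2 of them with at most 2 Slc12a1 counts, at a median of 954 counts. In the raw medulla matrix 0 did.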

How the results depend on the processing

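There were 12 planned and 3 added alternatives, which gave 96 values of the main results. Of these, 74 stayed within the spread set for them (1.5 times for a number of genes) and 22 moved. The main results are shares, numbers of genes and 1 ratio close to 1, so a reversal could not be called for them. With Lrp2 plus Cubn at 10 or more, the share of later barcodes in cortex was 3.51%, and the summed later markers outside the rule in cortical low members with over without Slc7a13 had a ratio of 0.673 in place of 0.949, from 2 barcodes without it at the limit of 5, too few to show a division. With Slc12a1 at 0 in the low class, the low share in medulla was 25.2%, and 489 genes passed 2-fold between regions and 385 between later and early barcodes of cortex. In the order medulla against cortex, later against early in cortex and medulla, and high against low Slc12a1 in cortex and medulla, a minimum of 50 counts gave 225, 194, 506, 1008 and 443 genes, no minimum above 1 count 6473, 6413, 7227, 10568 and 5370, and thinning to 1000 counts 202, 148, 320, 656 and 308. With 50 counts and with thinning fewer genes reached the minimum. Among Cyp7b1-negative barcodes 189 genes passed between regions and 476 between later and early barcodes of medulla. With no minimum, where most ratios rest on the 3 counts set for 0, the part of these genes that was higher went from 61.2% to 15.5% between regions and from 69.8% to 11.6% in high against low Slc12a1 of cortex. Without the 2 barcodes of at least 20000 counts, 527 genes passed between later and early barcodes of cortex. Without the cortical barcode rich in Slc12a3, the ratio of Slc12a3 between regions was 2.68, from 9 counts against 1. Its interval includes 1. Of 237 values of single genes, it was the only one to go from 2-fold on one side to 2-fold on the other. Changes across a ratio of 1 that stayed short of this were not counted. No paired analysis was possible because each region has 1 library. The smaller classes limit the precision: 3 counts correspond to 26.7 CPM in the low members of cortex and to 31.1 CPM in the 25 early barcodes of medulla, which hold 96370 counts, and a gene under these levels cannot be told from 0 there.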
